A study of Mus musculus with 6 samples.

Results

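The genes described here encode the machinery of glycolysis, the handling of its end products pyruvate and lactate, and the sensing of low oxygen with a choice of its induced genes. The set names 39 genes, and a gene was represented by the probe set (a group of short oligonucleotides on the array that reads 1 transcript) that carries its symbol alone and had the highest mean signal over the 6 arrays. Of the 39 genes, 37 had such a probe set, while Gpi1 and Eno1 had none and were not analysed here. The arrays named 18193 genes, of which 11611 were bright enough to be tested, and 34 of the 37 were among them. Eno2 and Egln3 stayed under the minimum of a signal of 100 on at least 3 of the 6 arrays, and Gapdh was read only by the manufacturer's control probe sets.

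The samples were 3 granulosa cell tumors of Smad1/5/8 mutant mice, untreated, and 3 samples of wild-type granulosa cells, with total RNA hybridised to 1 Affymetrix array per sample. The labels name the tumor mice only by their mutant genes; strain, age and the way the genes were mutated stand in no source used here. The wild-type cells came from C57BL/6J;129S5/SvEvBrd females aged 21 days, were isolated 44 to 46 hours after injection of PMSG, a gonadotropin preparation that drives follicle growth, and each sample pooled 2 to 3 females. Each p-value below measures the group difference against the spread between these samples, and 3 arrays per group limit the precision. Tumor tissue was set against isolated, hormone-primed cells, and the signals of the groups came from different software, so genotype, tissue, priming and processing cannot be told apart. The labelled cell type was present in both groups: Inha, Foxl2 and Amhr2, which mark granulosa cells, had signals of at least 5733 on every array. Of 10 granulosa markers, however, 4 were lower in tumors and 1 was higher. The largest loss was that of Inhba, at 273, 548 and 1241 in tumors against 28212, 20087 and 30806 in wild-type cells. Inhbb, Hsd17b1 and the FSH receptor gene Fshr were lower as well. Fshr read 1033, 721 and 248 in tumors against 5739, 6135 and 5185 in wild-type cells. The higher marker was Amh, at 2980, 2209 and 2190 in tumors against 456, 1658 and 253 in wild-type cells.

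Glycolysis splits glucose into pyruvate in the cytosol. Lactate dehydrogenase converts pyruvate to lactate, which leaves the cell through monocarboxylate transporters, while the pyruvate dehydrogenase complex, held in check by its kinases, sends pyruvate into the mitochondria. In a growing follicle the granulosa cells perform much of the glycolysis and pass pyruvate and lactate to the oocyte, which uses glucose poorly. At low oxygen the prolyl hydroxylases that mark HIF-1 alpha and HIF-2 alpha for destruction slow down, and these factors pair with ARNT and induce glycolytic genes, transporters and feedback genes.

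The set leaned towards lower signals in tumors. Of the 34 tested genes, 8 were lower and 5 higher in tumors at a limma adjusted p under 0.05, and 21 did not pass. Among all 11611 tested genes, 12.6% were called lower and 14.5% higher, so the share of the set called lower, 23.5%, lay above that of all genes and the share called higher, 14.7%, lay near it. The median log2 fold change of the 34 genes was -0.57, against -0.0049 over all tested genes. All 3 tumors lay below all 3 wild-type samples for 11 of the 34 genes and above them for 7, where 22.6% and 23.7% of all tested genes did so. Fold changes are differences of log2(signal + 32), tumor minus wild type, which understates the change of dim genes, and in whole tumors fewer cells of a type and less RNA per cell cannot be told apart. Leaving out a single array moved the count of lower genes to 16 without tumor replicate 2, where 9.01% of all tested genes were lower. Without any other single array the count was 5, where 5.7% to 12.1% of all tested genes were lower. Tumor replicate 2 was singled out after the values were seen, so results without it, here and for single genes below, are descriptions and not tests. A call gained in a fit without another array, or with other processing, was likewise picked out of many fits and is a description. The count of higher genes moved to 2 without wild-type replicate 1 and to 3 without tumor replicate 2, where 7.46% and 10.5% of all tested genes were higher.

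**Figure D1:**
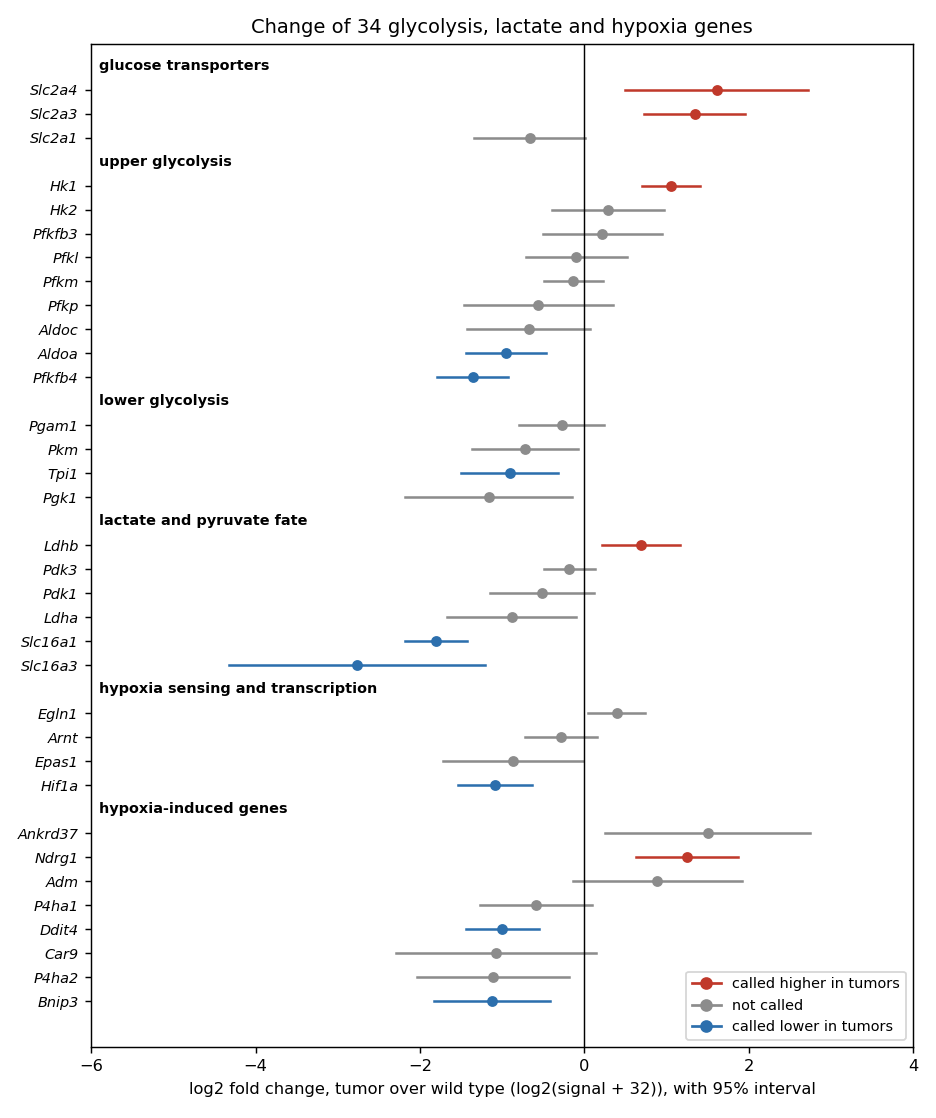
Log2 fold change of each tested gene (tumor over wild type, points) with its 95% interval from limma (lines), ordered by role; red genes were called higher in tumors, blue genes lower and grey genes not. The 8 lower genes include both monocarboxylate transporter genes, and the 5 higher genes include the transporter genes Slc2a3 and Slc2a4.

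Of the 3 glucose transporter genes, 2 were higher in tumors and 1 did not pass. Slc2a1 encodes GLUT1, the widely expressed basal transporter, and read 773, 1785 and 1178 in tumors against 1761, 1851 and 2068 in wild-type cells. Tumor replicate 2 thus lay among the wild-type samples and the other tumors below them, and the log2 fold change of -0.67 (standard error 0.29) did not pass (limma adjusted p = 0.128). Without tumor replicate 2 it was -0.96 (limma adjusted p = 0.0313). The 3 Slc2a1 probe sets gave -1.19 to -0.67, and for the one at -1.19, called lower on its own (limma adjusted p = 0.0449), tumor replicate 2 at 907 also lay below the lowest wild-type sample at 1182. Slc2a3 encodes GLUT3, a transporter of high affinity known from neurons and white blood cells. It read 333, 468 and 261 in tumors against 79.3, 136 and 143 in wild-type cells, with no overlap of the groups, a log2 fold change of 1.34 (standard error 0.26 and limma adjusted p = 0.011). Only this 1 of 4 Slc2a3 probe sets passed the filter. The others were dimmer, overlapped between the groups and disagreed in sign, with log2 differences of 0.89, 0.22 and -0.47. Slc2a4 encodes GLUT4, the insulin-regulated transporter of fat and muscle, and was dim: 297, 185 and 236 in tumors against 35.9, 19.1 and 162 in wild-type cells. The groups did not overlap, and only 1 wild-type array reached the signal minimum, so the filter was passed through the tumors. A dimmer second probe set failed the filter and overlapped, at 189, 83.7 and 150 in tumors against 35.3, 7.0 and 97.9 in wild-type cells. For the brighter one the log2 fold change was 1.61 (standard error 0.47 and limma adjusted p = 0.0433). Its size depended on the pseudocount, from 1.05 with 100 to 1.87 with 16, where it was no longer called (limma adjusted p = 0.0513). The call was also lost with no filter on low signals (limma adjusted p = 0.0812) and without any single array but wild-type replicate 3, with a limma adjusted p of up to 0.135 without wild-type replicate 1. Beside these transporters, 10 of 10 tested macrophage markers were higher in tumors (12 on the array, summed signals of 13774 to 16793 in tumors and 2288 to 2736 in wild-type cells). The neuron markers summed to 858 to 1303 in tumors and 1132 to 1255 in wild-type cells, most of it Uchl1, with 6 of 7 under 100 in all tumors. Adipocyte markers summed to 23737, 825 and 29139 in tumor replicates 1, 2 and 3, against 285 to 314 in wild-type cells, and 5 of 8 skeletal muscle markers were under 100 in all tumors and 8 of 8 in all wild-type samples. The part of these cell types in the transporter signals was not tested.

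In the upper part of the pathway, from hexokinase to aldolase, 1 of 9 tested genes was higher, 2 were lower and 6 did not pass. Hk1, the hexokinase of most tissues, read 1624, 1748 and 1940 in tumors against 904, 744 and 870 in wild-type cells, a log2 fold change of 1.05 (standard error 0.15 and limma adjusted p = 0.00376), and the groups lay far apart. Its second probe set gave 0.98. Hk2, the inducible hexokinase of muscle, fat and many tumors, read 740, 842 and 1633 in tumors against 861, 764 and 835 in wild-type cells, so that tumor replicate 3 alone stood out. The log2 fold change of 0.29 had a 95% interval from -0.39 to 0.97, and without tumor replicate 3 it was -0.052.

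The 3 genes of phosphofructokinase-1, the committed step of glycolysis, did not pass. Pfkl, the liver form, averaged 3066 ± 1209 in tumors and 3137 ± 89.0 in wild-type cells (SD, n = 3 each), and tumor replicate 2, at 4454, lay above every other array. Pfkm, the muscle form, averaged 1105 ± 159 in tumors and 1209 ± 44.8 in wild-type cells, a log2 fold change of -0.13 with a 95% interval from -0.49 to 0.22. Pfkp, the platelet form, read 431 in tumor replicate 1, against 1103 to 1535 on the other arrays, and its log2 fold change of -0.56 had an interval from -1.47 to 0.34. The bifunctional enzymes that set fructose 2,6-bisphosphate, the activator of phosphofructokinase-1, differed from each other. Pfkfb4 read 251, 169 and 250 in tumors against 673, 606 and 568 in wild-type cells, a log2 fold change of -1.36 (standard error 0.18 and limma adjusted p = 0.00306). Pfkfb3 read 800, 670 and 325 in tumors against 466, 463 and 507 in wild-type cells, with tumors on both sides of the wild-type samples, and its log2 fold change was 0.22 (standard error 0.31). It was 0.58 without tumor replicate 3 (limma adjusted p = 0.0377), and its second probe set read lower in tumors, at -0.32.

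Aldolase splits the sugar into a pair of 3-carbon sugars. Aldoa, the main form outside liver and brain, read 7377, 10763 and 7483 in tumors against 14991, 14743 and 19668 in wild-type cells. Every tumor lay below every wild-type sample, and the log2 fold change was -0.95 (standard error 0.21 and limma adjusted p = 0.0164). All 5 Aldoa probe sets read lower in tumors, by log2 fold changes from -1.05 to -0.19, and 3 passed on their own. The call missed the threshold without wild-type replicate 3 (limma adjusted p = 0.0553). Aldoc, the form known from brain, read 549, 952 and 358 in tumors against 880, 1043 and 902 in wild-type cells. Its log2 fold change of -0.68 did not pass (limma adjusted p = 0.158), and without tumor replicate 2 it was -1.03 (limma adjusted p = 0.0257).

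In the lower part of the pathway, from the triose phosphates to pyruvate, all 4 tested genes had negative log2 fold changes and 1 passed. Tpi1, which interconverts the triose phosphates, read 5671, 10116 and 5884 in tumors against 12982, 11472 and 15080 in wild-type cells, a log2 fold change of -0.91 (standard error 0.25 and limma adjusted p = 0.0356). Its 3 probe sets gave -0.91 to -0.79, and 1 passed on its own. The call was lost with the mean over probe sets (limma adjusted p = 0.0591) and with no filter on low signals (limma adjusted p = 0.0735). It was also lost without any single array but tumor replicate 2 (limma adjusted p of up to 0.11, without wild-type replicate 3). Pgk1, the first ATP-forming enzyme, read 2772, 9592 and 6210 in tumors against 13645, 9636 and 14368 in wild-type cells. The groups did not overlap, but tumor replicate 2 nearly met wild-type replicate 2, and the log2 fold change of -1.17 (standard error 0.43) did not pass (limma adjusted p = 0.0854). The 3 Pgk1 probe sets gave -1.17 to -0.60, and 0 passed on their own. For the one at -0.60 the groups overlapped, with tumor replicate 2 at 2906 above the highest wild-type sample at 2128. Pkm, the pyruvate kinase of most tissues outside liver and red blood cells, read 4069, 8155 and 4355 in tumors against 9649, 8028 and 8453 in wild-type cells. The difference was -0.72 on the log2 scale (standard error 0.27 and limma adjusted p = 0.0927). Without tumor replicate 2, Pgk1 was at -1.57 (limma adjusted p = 0.0317) and Pkm at -1.04 (limma adjusted p = 0.0116). Pgam1, which moves the phosphate of phosphoglycerate, averaged 6916 ± 1654 in tumors and 8327 ± 1401 in wild-type cells (SD, n = 3 each), a log2 fold change of -0.28 with an interval from -0.79 to 0.24.

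Gapdh, the dehydrogenase often used as a reference gene, read 21026, 26125 and 23297 in tumors against 31076, 29509 and 38125 in wild-type cells on its control probe set. In a fit that kept the control probe sets, chosen after seeing the data, its log2 fold change was -0.48 (standard error 0.17 and limma adjusted p = 0.0693). Eno2, the enolase known from neurons, read 84.6, 117.5 and 81.4 in tumors against 3.4, 40.9 and 10.1 in wild-type cells, close to or under the signal minimum on every array.

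**Figure D2:**
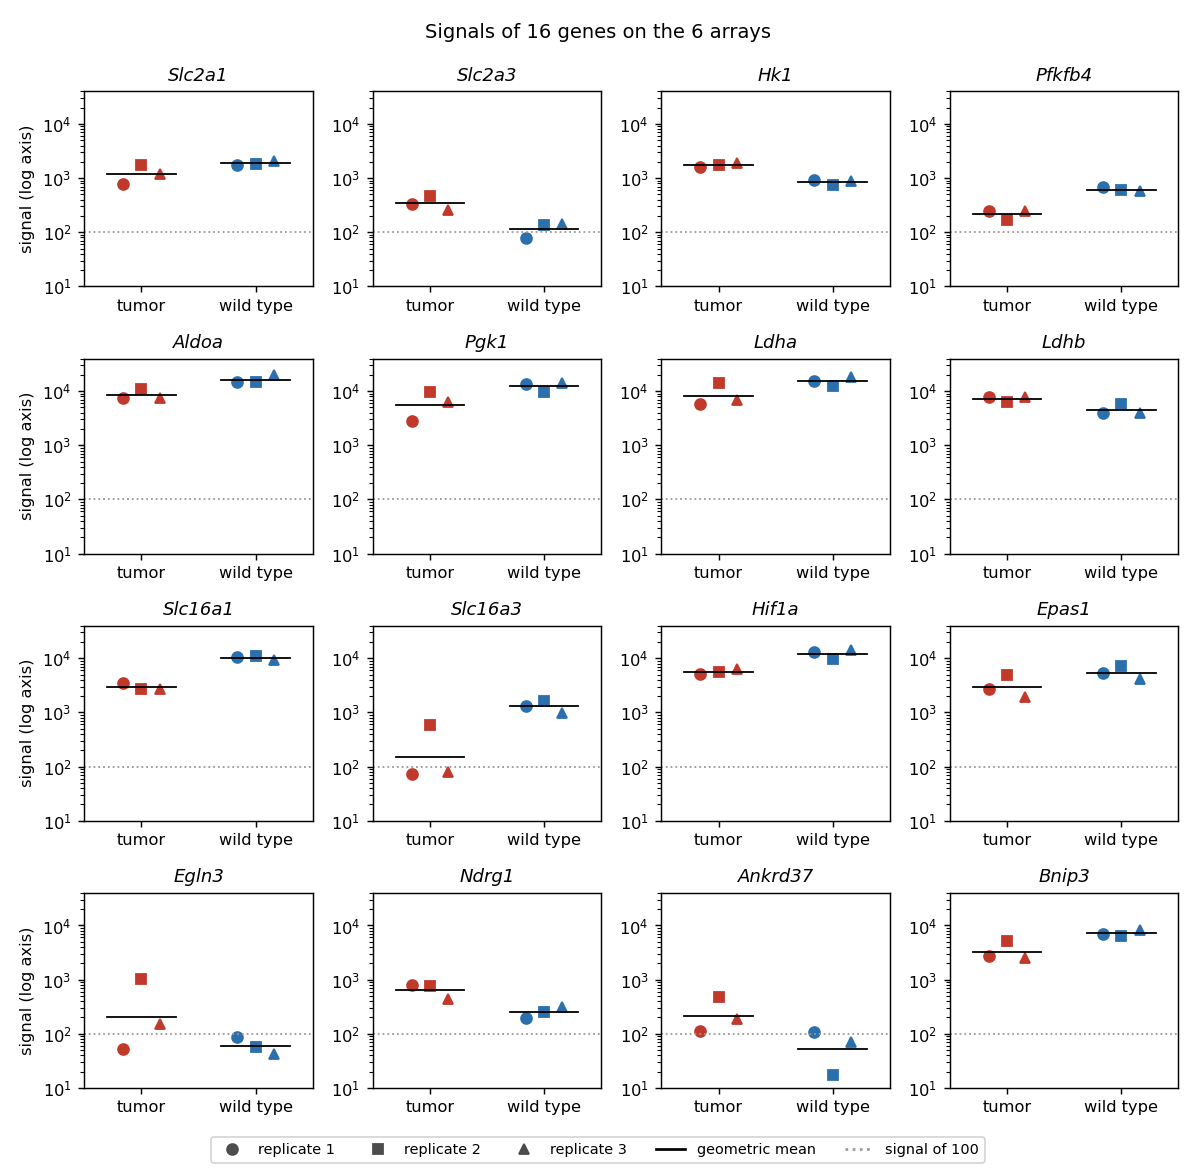
Signals of 16 genes on a log axis, tumors left and wild-type samples right, with 1 symbol per replicate, a black line for the geometric mean of each group and a dotted line at the signal minimum of 100. For Slc16a1, Hif1a, Pfkfb4 and Hk1 the groups lie apart with little spread, while for Ldha, Slc2a1 and Epas1 tumor replicate 2 lies among the wild-type samples.

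The transporter genes of lactate had the largest log2 fold changes among the genes called lower. Slc16a1 encodes MCT1, a monocarboxylate transporter that carries lactate and pyruvate in either direction, and read 3451, 2681 and 2722 in tumors against 10470, 11155 and 9423 in wild-type cells. Its log2 fold change was -1.81 (standard error 0.16 and limma adjusted p = 0.00081), the smallest adjusted p of the set, and the highest over the 6 fits without 1 array was 0.0066. Slc16a3 encodes MCT4, the low-affinity exporter of strongly glycolytic cells, and read 72.6, 596 and 80.2 in tumors against 1331, 1642 and 981 in wild-type cells. Tumor replicate 2 lay between the other tumors, both under the signal minimum, and the wild-type samples. The log2 fold change was -2.76 (standard error 0.66 and limma adjusted p = 0.022), and -3.61 without tumor replicate 2 (limma adjusted p = 0.000968). The call was lost without tumor replicate 1 or 3 and without wild-type replicate 1 or 2, with a limma adjusted p of up to 0.0714.

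The lactate dehydrogenase subunits, M from Ldha and H from Ldhb, had fold changes of opposite sign. Ldha, whose product favours the making of lactate, read 5899, 13883 and 6849 in tumors against 15666, 12467 and 18254 in wild-type cells. Tumor replicate 2 lay among the wild-type samples, and the log2 fold change of -0.89 (standard error 0.33) did not pass (limma adjusted p = 0.0889). Without that tumor it was -1.26 (limma adjusted p = 0.0126). Ldhb, the subunit of heart muscle and other oxidative tissues, read 7820, 6347 and 7667 in tumors against 3926, 5866 and 3918 in wild-type cells, a log2 fold change of 0.69 (standard error 0.20 and limma adjusted p = 0.0443). All 4 Ldhb probe sets read higher in tumors, from 0.51 to 1.00, and 1 passed when each probe set was tested on its own, where the brightest did not (limma adjusted p = 0.0509). The call was lost without any single array but wild-type replicate 2 (limma adjusted p of up to 0.151, without wild-type replicate 1). It was lost as well with quantile normalization (limma adjusted p = 0.0528), on a common median (limma adjusted p = 0.0617) and with no filter on low signals (limma adjusted p = 0.0912). Of the kinases that switch off pyruvate dehydrogenase, Pdk1 and Pdk3 belong to the set, and neither passed. Pdk1 averaged 809 ± 291 in tumors and 1131 ± 158 in wild-type cells (SD, n = 3 each), with a log2 fold change of -0.52 (standard error 0.27), and its passing probe sets disagreed in sign, from -0.81 to 0.41. Pdk3 averaged 798 ± 48.0 in tumors and 909 ± 31.4 in wild-type cells, a log2 fold change of -0.18 (standard error 0.13).

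Among the oxygen-sensing genes, Hif1a was lower in tumors. It encodes HIF-1 alpha, whose amount is mainly set by protein breakdown, and read 5187, 5697 and 6237 in tumors against 13140, 9563 and 14342 in wild-type cells. The log2 fold change was -1.09 (standard error 0.19 and limma adjusted p = 0.00759), the 3 passing probe sets gave -2.09 to -1.09 and all passed on their own, and the call held without each array in turn. Epas1 encodes HIF-2 alpha, also known from blood vessel lining, and read 2732, 4909 and 1930 in tumors against 5261, 7315 and 4131 in wild-type cells. Its log2 fold change of -0.86 (standard error 0.36) did not pass (limma adjusted p = 0.12), but was called, at -1.23, without tumor replicate 2 (limma adjusted p = 0.0322). The second passing probe set was dimmer, at 116, 126 and 17.2 in tumors against 224, 181 and 250 in wild-type cells. There every tumor, tumor replicate 2 included, lay below every wild-type sample, and -1.25 did not pass on its own (limma adjusted p = 0.0762). Arnt, the common partner, averaged 748 ± 54.8 in tumors and 930.5 ± 208 in wild-type cells (SD, n = 3 each), with a log2 fold change of -0.28 (standard error 0.19).

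Of the prolyl hydroxylase genes of the set, Egln1 did not pass and Egln3 was not tested. Egln1 encodes PHD2, the main oxygen sensor, and read 1203, 1527 and 1303 in tumors against 1009, 1047 and 978 in wild-type cells. The groups did not overlap, and the log2 fold change of 0.39 (standard error 0.15) missed the threshold (limma adjusted p = 0.0879). Egln3 encodes PHD3, a hydroxylase gene strongly induced by HIF, and read 52.2, 1026 and 153 in tumors against 86.5, 56.8 and 41.4 in wild-type cells. Tumor replicate 2 was the only array above 153, and the gene was not tested because only 2 arrays reached 100.

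Of the 8 hypoxia-induced genes of the set, all tested, 2 were lower, 1 was higher and 5 did not pass. Bnip3, a mitochondrial protein gene of mitophagy, read 2690, 5272 and 2473 in tumors against 7077, 6256 and 8390 in wild-type cells, a log2 fold change of -1.13 (standard error 0.30 and limma adjusted p = 0.031). The call was lost without any single array but tumor replicate 2 (limma adjusted p of up to 0.0969, without wild-type replicate 3) and with no filter on low signals (limma adjusted p = 0.0638). Ddit4, which restrains mTORC1 and is also induced by glucocorticoids and other stresses, read 1364, 1200 and 1330 in tumors against 3180, 2063 and 2749 in wild-type cells. Its log2 fold change was -0.999 (standard error 0.19 and limma adjusted p = 0.00998), and it was called in all 6 fits without 1 array. Ndrg1, a gene of differentiation and stress, read 783, 752 and 432 in tumors against 198, 247 and 312 in wild-type cells. In tumors it was higher by a log2 of 1.25 (standard error 0.26 and limma adjusted p = 0.0146), its 5 probe sets gave 1.25 to 2.03 and all passed on their own, and the call was lost without wild-type replicate 1 alone (limma adjusted p = 0.0601).

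Of the 5 that did not pass, Ankrd37, an ankyrin repeat gene, read 114, 473 and 188 in tumors against 109, 17.4 and 71.4 in wild-type cells, a log2 fold change of 1.498 (standard error 0.53 and limma adjusted p = 0.0762). It passed without tumor replicate 1 (limma adjusted p = 0.0498) and on a common median (limma adjusted p = 0.0389). Adm, the gene of the vasodilator adrenomedullin, read 166, 452 and 136 in tumors against 73.2, 85.7 and 173 in wild-type cells, a log2 fold change of 0.89 (standard error 0.44). For both genes tumor replicate 2 was the highest array. Car9, a carbonic anhydrase gene and a common hypoxia marker, was near the signal minimum, at 75.3, 132 and 6.7 in tumors against 159, 102 and 217 in wild-type cells, and its log2 fold change of -1.07 (standard error 0.52) did not pass. The collagen prolyl 4-hydroxylase gene P4ha2 read 131, 454 and 306 in tumors against 618, 490 and 762 in wild-type cells, a log2 fold change of -1.11 (standard error 0.39 and limma adjusted p = 0.0745). P4ha1, of the same enzyme, read 1055, 2402 and 1475 in tumors against 2593, 2348 and 2129 in wild-type cells, a log2 fold change of -0.59 (standard error 0.29 and limma adjusted p = 0.173). Without tumor replicate 2, P4ha2 was at -1.46 (limma adjusted p = 0.0324) and P4ha1 at -0.90 (limma adjusted p = 0.0314).

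Tumor replicate 2 stood apart from the other tumors in this set, a pattern noticed after the values were seen and given as a description. It was the highest of the 3 tumors for 20 of the 34 tested genes, against 30.4% of all tested genes; tumor replicate 1 was the highest for 10 and tumor replicate 3 for 4, against 31.9% and 37.7% of all tested genes. Its log2(signal + 32) was at least 1 above the mean of the other tumors for 10 of the 34 genes, against 2.46% of all tested genes. These 10 were Slc16a3 (2.54), Ankrd37 (1.49), Adm (1.41), Car9 (1.35), Pgk1 (1.20), Ldha (1.12), Epas1 (1.09), P4ha2 (1.05), Aldoc (1.05) and Bnip3 (1.02). For 10 of the 34 genes, tumor replicates 1 and 3 lay below all wild-type samples and tumor replicate 2 did not, against 3.75% of all tested genes; these were Slc2a1, Pfkl, Pfkp, Aldoc, Pgam1, Pkm, Ldha, Epas1, Car9 and P4ha1. The same held with tumor replicate 1 as the exception for 2 genes and with tumor replicate 3 for 1, against 4.15% and 6.09% of all tested genes. These counts rest on the brightest probe set of each gene. On another passing probe set of Slc2a1 and of Epas1, tumor replicate 2 also lay below all wild-type samples. Tumor replicate 2 did not stand above the other tumors for Slc16a1, Hif1a, Ddit4 and Pfkfb4, all called lower, where it differed from the mean of the other tumors by -0.19, 0.0024, -0.16 and -0.49. The median SD of log2(signal + 32) over the 34 genes was 0.52 in tumors and 0.23 in wild-type cells, against 0.24 and 0.19 over all tested genes.

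**Figure D3:**
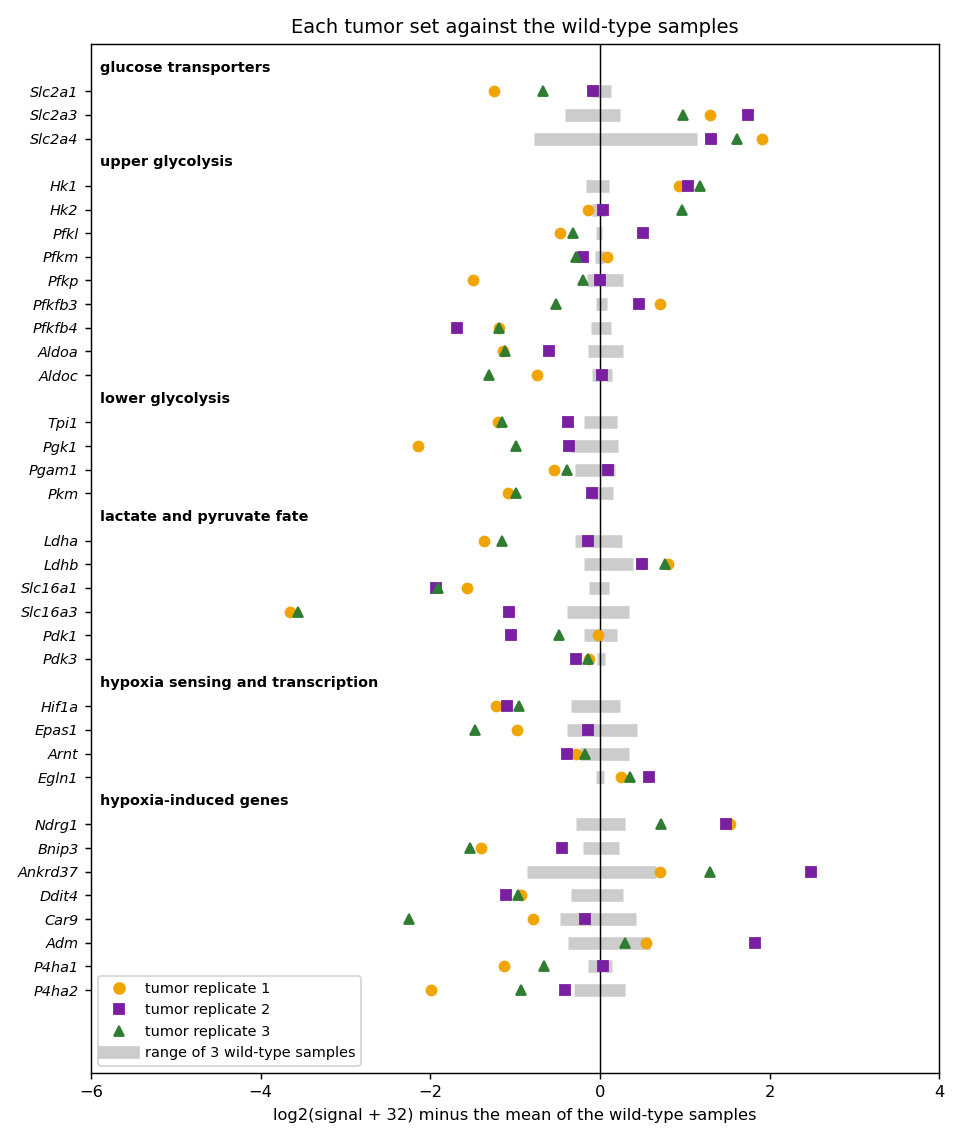
Each tumor's log2(signal + 32) minus the mean of the wild-type samples for the 34 tested genes, with the range of the wild-type samples in grey. Tumor replicate 2 (squares) lies to the right of the other tumors for most genes of lower glycolysis and most hypoxia-induced genes, and level with them for Slc16a1, Hif1a and Ddit4.

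Without tumor replicate 2, 16 of the 34 genes were called lower, where 9.01% of all tested genes were, and all 8 genes called lower on the full set were among them. This tumor was singled out by the values of these same genes, so the added calls describe that pattern and do not test it. The added genes were Slc2a1, Aldoc, Pgk1, Pkm, Ldha, Epas1, P4ha1 and P4ha2. The 3 higher genes in that fit, Slc2a3, Hk1 and Ndrg1, were among the 5 higher genes of the full set. The other genes that low oxygen is known to induce, 27 tested of a list of 31, had tumor replicate 2 as the highest tumor for 18 genes, against 30.4% of all tested genes. For 6 of the 27 it was at least 1 above the mean of the other tumors on the log2 scale, against 2.46% of all tested genes. Vegfa, the angiogenic factor gene, read 404, 1338 and 457 in tumors against 967, 977 and 1229 in wild-type cells. Cxcr4, a chemokine receptor gene, read 192, 1261 and 230 in tumors against 190, 280 and 306 in wild-type cells, and the other 4 were Ak4, Bhlhe40, Lox and Plod1; these 6 were chosen after their values were seen. Among the 7 tested genes of the pentose phosphate pathway tumor replicate 2 was the highest tumor for 0, and among 13 other pyruvate and lactate genes for 2. The count was 5 of 8 other glycolytic isoforms, 2 of 5 other glucose transporters, 5 of 14 glycogen and gluconeogenesis genes and 2 of 10 other oxygen-sensing genes.

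**Figure D4:**
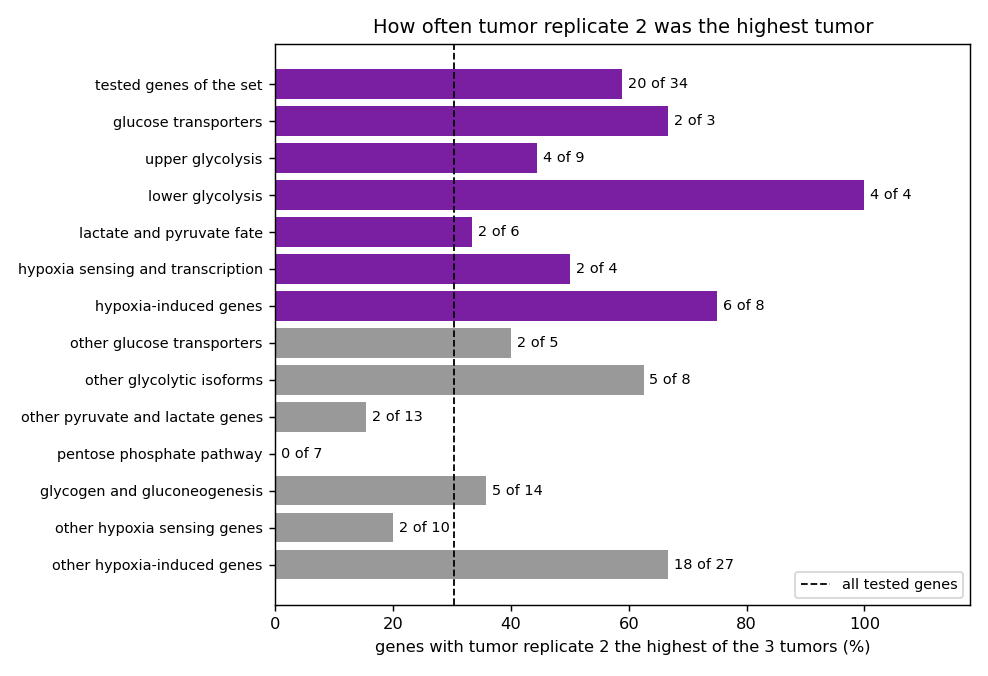
Share of tested genes for which tumor replicate 2 had the highest signal of the 3 tumors, by gene list, with the counts beside the bars and the share among all tested genes as a dashed line. The tested genes of the set reach 20 of 34, the other hypoxia-induced genes 18 of 27 and the other glycolytic isoforms 5 of 8, while the pentose phosphate pathway has 0 of 7.

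Tumor replicate 2 also differed from the other tumors in adipocyte and endothelial markers. The sums of granulosa, smooth muscle and fibroblast markers did not set it apart: tumor replicates 1 and 2 lay closer together than either did to tumor replicate 3. Of the 5 adipocyte markers on the array, Adipoq, the gene of the fat cell hormone adiponectin, read 8446, 52.6 and 8410 in tumor replicates 1, 2 and 3, against 2.1 to 25.3 in wild-type cells, and Fabp4, a fatty acid binding protein gene also known from macrophages and endothelium, read 12178, 746 and 18320 in the same tumors against 85.8 to 156 in wild-type cells. The 10 endothelial markers summed to 6796, 13413 and 7677 in tumor replicates 1, 2 and 3, against 2162 to 3063 in wild-type cells, with 5 of 10 called higher in tumors. The 10 granulosa markers summed to 109822, 110867 and 101405 in tumor replicates 1, 2 and 3, against 189555 to 216414 in wild-type cells. Smooth muscle markers summed to 27770, 30933 and 16544 and fibroblast markers to 58662, 65984 and 42649 in tumor replicates 1, 2 and 3, against 4388 to 5863 and 13263 to 16194 in wild-type cells. The log2 ratio of the control probe set near the 3' end to that near the 5' end is a check of RNA integrity. A higher ratio goes with less intact RNA. For Actb it was 0.57, 0.89 and 0.97 in tumor replicates 1, 2 and 3, against 0.33 to 0.67 in wild-type cells. The same ratio for Gapdh was -0.47, -0.24 and -0.38 in tumor replicates 1, 2 and 3, against -0.45 to -0.32 in wild-type cells. By Actb, tumor replicates 2 and 3 lay above every wild-type sample, and by Gapdh only tumor replicate 2 did. The part of cell makeup and RNA quality in the values of tumor replicate 2, and in the differences between tumors and wild-type cells, was not tested.

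Sequences before the start sites of genes that carry these patterns are shown because the HIF complex is known to bind the core ACGTG or GCGTG. The 250 bases before each annotated start were searched on both strands in RefSeq's promoter windows (build GRCm38.p6), where 35 of the 39 genes matched by symbol and Slc2a3, Slc2a4, Ndrg1 and Epas1 did not. ACGTG stood in at least 1 window of 21 of these 35 genes, or 60.0%, against 18.5% of the 27025 genes in the table, and either core in 32 of 35, or 91.4%, against 41.5%. A palindromic CACGTG counts on both strands, and base composition was not matched. The cores are in capitals, written 5′ to 3′ on the strand of the gene. The first 3 genes had tumor replicate 2 far above the other tumors, Slc16a3 was lower in all tumors with tumor replicate 2 the highest, and Slc16a1 was lower in all with tumor replicate 2 the lowest. For Ldha the first of 2 windows is shown.
Egln3, chr12:54203875-54204124, minus strand: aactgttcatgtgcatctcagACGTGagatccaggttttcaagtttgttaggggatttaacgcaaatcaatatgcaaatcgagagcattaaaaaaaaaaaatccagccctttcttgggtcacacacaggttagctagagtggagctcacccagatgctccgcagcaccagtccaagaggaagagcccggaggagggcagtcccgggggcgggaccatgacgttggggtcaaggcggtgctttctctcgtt
Ankrd37, chr8:45999851-46000100, minus strand: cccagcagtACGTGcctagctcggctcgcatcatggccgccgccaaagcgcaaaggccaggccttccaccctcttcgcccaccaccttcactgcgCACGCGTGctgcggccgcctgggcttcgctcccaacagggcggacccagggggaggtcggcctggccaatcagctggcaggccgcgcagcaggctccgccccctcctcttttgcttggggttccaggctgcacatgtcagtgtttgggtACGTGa
Ldha, chr7:46845554-46845803, plus strand: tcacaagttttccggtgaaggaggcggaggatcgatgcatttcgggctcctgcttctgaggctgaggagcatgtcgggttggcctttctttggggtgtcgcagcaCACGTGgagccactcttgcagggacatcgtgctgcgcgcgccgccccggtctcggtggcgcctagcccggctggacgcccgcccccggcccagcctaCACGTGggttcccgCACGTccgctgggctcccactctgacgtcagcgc
Slc16a3, chr11:120948817-120949066, plus strand: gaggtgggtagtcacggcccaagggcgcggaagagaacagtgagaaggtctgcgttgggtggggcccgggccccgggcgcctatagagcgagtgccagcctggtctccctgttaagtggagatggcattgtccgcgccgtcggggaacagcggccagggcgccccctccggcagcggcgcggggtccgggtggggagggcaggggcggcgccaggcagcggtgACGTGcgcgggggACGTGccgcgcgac
Slc16a1, chr3:104638414-104638663, plus strand: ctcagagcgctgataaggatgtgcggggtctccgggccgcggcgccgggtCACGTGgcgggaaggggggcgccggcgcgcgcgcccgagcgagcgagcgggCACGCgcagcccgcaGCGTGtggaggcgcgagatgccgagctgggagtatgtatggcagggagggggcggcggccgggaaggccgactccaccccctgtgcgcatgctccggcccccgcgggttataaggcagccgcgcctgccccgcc
Counted on both strands, Egln3 held 1 ACGTG and 0 GCGTG, Slc16a3 2 and 0, and Ankrd37 2 and 2. The shown Ldha window held 5 and 0, and its other window 0 and 1. Slc16a1, whose tumors did not differ in this way, held 2 and 2, the same counts as Ankrd37, with its ACGTG as 1 palindrome. All 5 windows shown hold at least 1 core, whichever pattern the gene had.

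The genes of a family were set against each other on each array, as the difference of their log2(signal + 32) values, which shows unequal change and no order of levels. Of 13 pairs compared, 4 had no overlap between the groups; an exact 2-sided permutation test of 3 against 3 samples cannot go below p = 0.1, and adjusted over the 13 pairs the lowest value was 0.325. Slc2a3 minus Slc2a1 was 2.01 higher in tumors, at -1.14, -1.86 and -2.05 in tumors against -4.01, -3.49 and -3.58 in wild-type cells (exact permutation p = 0.1). Slc2a4 minus Slc2a1 was 2.28 higher. Pfkfb4 minus Pfkfb3 was 1.57 lower in tumors, at -1.56, -1.81 and -0.34 in tumors against 0.50, 0.36 and 0.15 in wild-type cells. Hk2 minus Hk1 was 0.76 lower. Ldhb minus Ldha read 0.40, -1.13 and 0.16 in tumors against -1.99, -1.08 and -2.21 in wild-type cells: tumor replicates 1 and 3 lay above the wild-type samples, tumor replicate 2 lay among them, and the difference of 1.57 had an exact permutation p = 0.2. Slc16a3 minus Slc16a1 read -5.06, -2.11 and -4.62 in tumors against -2.95, -2.74 and -3.22 in wild-type cells, so that tumor replicate 2 lay above and the other tumors below. The other 7 pairs differed by -0.53 to 1.08, with an exact permutation p of 0.2 to 0.9.

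**Figure D5:**
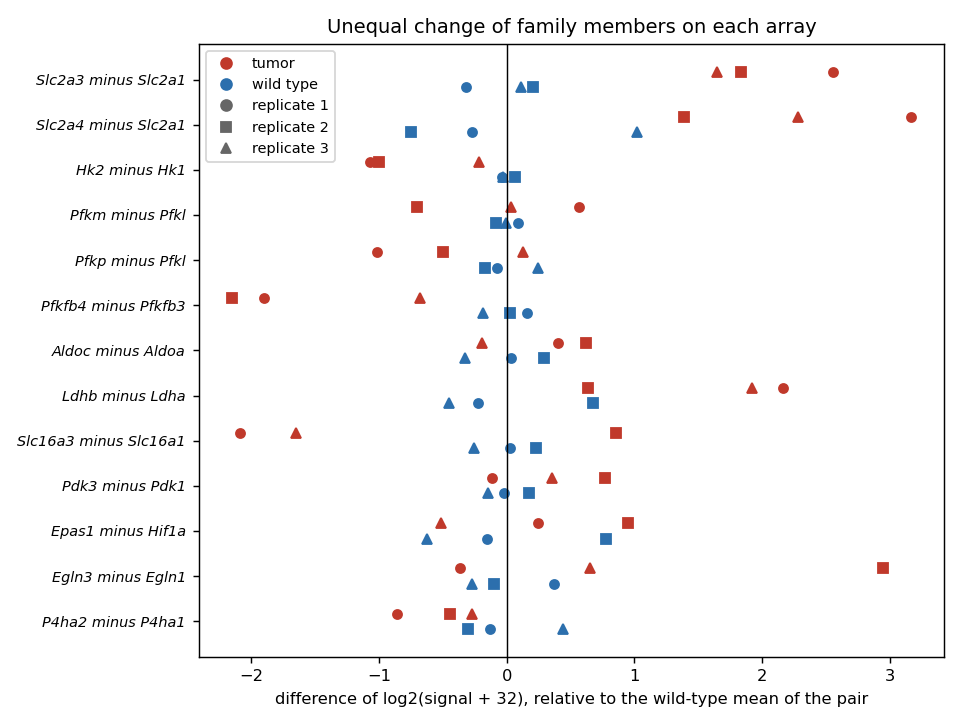
Difference of log2(signal + 32) between 2 genes of a family on each array, shifted so that the wild-type mean of each pair is 0 (tumors red, wild-type samples blue, symbols for replicates). The groups lie apart for Slc2a3 and Slc2a4 against Slc2a1, for Hk2 against Hk1 and for Pfkfb4 against Pfkfb3.

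In the lists of related genes that follow, the counts of called genes are to be read against the 14.5% of all tested genes called higher and the 12.6% called lower. Of 8 other glycolytic isoform genes tested, 1 was higher and 1 lower: Hk3, a hexokinase of white blood cells, read 103, 185 and 103 in tumors against 10.2, 31.6 and 11.1 in wild-type cells, and Gapdhs, the sperm isoform, read 87.1, 73.4 and 48.4 in tumors against 150, 144 and 114 in wild-type cells. Both passed the filter only through the group where they were high. Of 5 other glucose transporter genes 1 passed, Slc2a13, with a log2 fold change of 0.82 (standard error 0.19). Of 13 other pyruvate and lactate genes 2 were lower and 0 higher. Pcx, the pyruvate carboxylase that feeds the citric acid cycle, read 799, 260 and 353 in tumors against 1273, 1173 and 1345 in wild-type cells, a log2 fold change of -1.51 (standard error 0.36 and limma adjusted p = 0.022), and Pdk4, a starvation-induced kinase of pyruvate dehydrogenase, was at -0.93 (standard error 0.22). Of 7 pentose phosphate genes 1 was higher, H6pd, with a log2 fold change of 0.57 (standard error 0.17).

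Of 14 tested glycogen and gluconeogenesis genes, 2 were higher (14.3%) and 2 lower (14.3%), shares near those of all tested genes. Pygb, the brain form of glycogen phosphorylase, read 8286, 6491 and 3487 in tumors against 1624, 1916 and 1198 in wild-type cells, a log2 fold change of 1.86 (standard error 0.34 and limma adjusted p = 0.0084). Ppp1r3c, a glycogen-targeting phosphatase subunit, read 327, 317 and 105 in tumors against 48.4, 15.9 and 69.5 in wild-type cells, and passed the filter only through the tumors. Of 10 other oxygen-sensing genes, 2 were lower and 2 higher: Cited2, which competes with HIF-1 alpha for its coactivators, had a log2 fold change of -1.43 (standard error 0.19 and limma adjusted p = 0.00306), and Arnt2, a relative of Arnt, one of 1.31 (standard error 0.26). Of the 27 other hypoxia-induced genes, 4 were lower (14.8%), 3 higher (11.1%) and 20 did not pass, again near the shares of all tested genes. Tmem45a, a transmembrane protein gene, was at -2.13 (standard error 0.31) and Car12, another carbonic anhydrase gene, at 1.37 (standard error 0.39).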

How the data were processed

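Total RNA of 6 mouse samples was hybridised to 1 Affymetrix array each. The deposited values are linear signal intensities, 1 per probe set, made with GCOS (tumor arrays) and MAS5 (wild-type arrays), per the submitters' processing notes, with no version given. Each deposited array had a trimmed mean of 500 with 2% left out at each end and was scaled to it again, which moved almost nothing. Of 45101 probe sets, 34945 carried 1 gene symbol in GEO's platform annotation, 932 several and 9160 none, beside 64 control probe sets. Probe sets had to reach 100 on 3 or more arrays to be kept, and the brightest one stood for a gene (11611 genes). Per array, 22599 to 25049 probe sets did so. Array correlations across genes were 0.938 to 0.951 between tumors, 0.964 to 0.979 between wild-type samples and 0.840 to 0.867 across the groups.

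Values were tested as log2(signal + 32) in R 4.3.3 by limma 3.58.1 (2-sided, lmFit followed by eBayes), adjusted by Benjamini-Hochberg over all 11611 genes and called under 0.05. SE and 95% intervals are limma's, and SD is over 3 arrays. Family pairs were tested with an exact permutation test (scipy 1.17.1). The fit was first tested on simulated data. All genes of the set are named; those with several probe sets are given by the brightest, and from each other list the called genes with the largest changes, at most 2. The genes of the set, the lists and the tests were chosen with earlier results of these data known. Alternatives tried were other scalings, pseudocounts of 16 and 100, no filter or a stricter one, the mean over probe sets, an intensity trend, array weights, the replicate number as a block and leaving out each array. Added after seeing the data were scaling to the bacterial hybridisation controls, keeping control probe sets for Gapdh, and testing each probe set on its own. No column of other samples was present.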

Additional observations from a re-analysis of the deposited data

How the results depend on the processing

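Over 11 alternatives to the processing, not counting fits without 1 array, 353 of 370 values of the 34 genes kept their direction and their side of the threshold, 11 lost the call, 4 gained it and 2 changed sign. Part of this was fixed in advance. The values as deposited, the other filters, the intensity trend and the replicate block left the log2 fold changes practically unchanged, so that only calls could move. The mean over probe sets did the same for genes with 1 passing probe set. The sign changed for Pfkl with array weights (0.13) and for Pfkfb3 with the mean over probe sets (-0.052), both not called. The pair Pfkm minus Pfkl changed sign with quantile normalization (0.0080). With the hybridisation controls as the scale (added after seeing the data), the median of all genes shifted by -0.9997 and 377 genes were higher and 7801 lower, of the set 1 and 24; the set's median was -1.60, which is -0.60 relative to that shift. On a common median, 915 of all genes were lower.

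Without 1 array at a time, the set's counts ran from 2 to 4 higher and from 5 to 16 lower genes, and those over all genes from 866 to 1704 higher and from 662 to 1409 lower. In these fits the log2 fold change ran from -0.052 to 0.50 for Hk2, from -0.40 to 0.089 for Pfkl and from -0.029 to 0.58 for Pfkfb3. The pair Pfkm minus Pfkl ran from -0.33 to 0.30, and Epas1 minus Hif1a from -0.13 to 0.62. The cause of these changes was not tested.

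Replicate numbers were not treated as pairs in the main fit. Deviations of same-numbered samples correlated at -0.0449, 0.0276 and 0.0900 across genes, and those of differently numbered samples at -0.145 to 0.133. With 3 samples per group these values cannot exclude a pairing. With the replicate number as a block, 4 genes of the set were higher and 7 lower, and 1464 and 1138 of all genes; the calls of Tpi1, Bnip3 and Ldhb were lost and Epas1 was called. The number of arrays limits what could be called, and signals around 100 limit Slc2a4, Slc16a3, Eno2, Egln3, Ankrd37, Car9 and Adm.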
